A study of Mus musculus with 4 samples.

Results

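The RNA-seq libraries Control 1 and Control 2 hold the baseline transcripts of stage 1 invariant natural killer T (iNKT) cells. They were chosen by their titles and are 2 of the 4 samples of the series. The other 2 samples, deficient in the arginine methyltransferase PRMT5, were not used. Thymic cells of C57BL/6J mice were sorted for stage 1, which the labels define by the absence of CD24, NK1.1 and T-bet. The labels give 1 genotype text for both Control libraries, naming Prmt5 flox/D as well as Prmt5 flox/+ Cd4-Cre. Which library had which genotype is not said. A floxed allele stays intact until Cre recombinase cuts it, the allele written D is not explained, and Cd4-Cre acts in developing T cells. Ages, sexes, cell numbers and pooling of animals are not given, and the labels do not say whether each library had its own mice. The difference between them may therefore be technical or may lie in genotype or animals, which cannot be told apart here. No condition was compared.

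iNKT cells are T cells that carry a nearly invariant receptor alpha chain and recognise lipids presented by CD1d. They are selected in the thymus on double-positive thymocytes with help from receptors of the SLAM family and the adaptor SAP. Their effector programme is set by the transcription factor PLZF, encoded by Zbtb16. After the earliest, CD24-positive stage they pass through NK1.1-negative stages before some express T-bet and NK receptors, and subsets that make mainly IL-4 (NKT2), IFN-gamma (NKT1) or IL-17 (NKT17) are told apart.

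Reads on annotated exons numbered 5571860 in Control 1 and 4600799 in Control 2, over a table of 46517 genes. Levels are given as counts per 1000000 exon reads of the library (CPM) or, where genes are compared with each other, as CPM per kilobase of exon (RPKM). Where a pair of values follows a gene, Control 1 comes first. The median of a list is taken in each library on its own, so the pair need not show the direction of its members. A single read was worth 0.179 and 0.217 CPM. At 1 CPM or more in both libraries there were 10225 genes, 21.98% of the table, and 7585 genes reached 10 CPM in both. The table includes 15821 genes with an exon length of 0, which cannot reach these levels. The median RPKM of the 10225 genes, 9.39 in Control 1 and 8.34 in Control 2, is the yardstick for the levels below.

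The genes given as marks of these cells were all present. Zbtb16, at chr9:48654297-48836222 on the minus strand of mm10, had RPKM of 37.6 and 26.3. Gata3, a factor of the IL-4 programme at chr2:9857078-9890034 on the minus strand, had RPKM of 57.6 and 55.8. Lef1, a factor needed for early iNKT expansion at chr3:131110471-131224356 on the plus strand, had RPKM of 56.0 and 54.8. All 3 factors were therefore above the median detected gene in both libraries, and Gata3 and Lef1 hardly differed between them. Il2rb, the receptor chain that IL-2 and IL-15 share, at chr15:78479256-78495271 on the minus strand, had RPKM of 201 and 141. Tbx21, which encodes T-bet, at chr11:97098071-97115331 on the minus strand, had RPKM of 43.6 and 24.0, from 605 and 275 exon reads.

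Of the proteins that the gate excluded, transcripts of CD24 were the ones not seen. Cd24a was listed at 0 reads in both libraries, which allows up to 0.538 and 0.652 CPM by counting error. Klrb1c, which encodes NK1.1, had RPKM of 12.6 and 4.11 from 208 and 56 reads. Tbx21 and Klrb1c transcripts were thus counted although cells positive for their proteins were to be left out by the gate, and both had a higher CPM in Control 1. The libraries are averages over cells, so fewer cells that express a gene and less RNA of it per cell cannot be told apart.

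The invariant receptor itself can be read from its gene segments, which is why the sequences of the segments with most reads are shown here. The sequences were read from GENCODE M21 transcripts on GRCm38 (mm10), all on the plus strand. Traj18 is the joining segment of the invariant alpha chain, and its capitals mark the codons of the Phe-Gly-X-Gly motif that joining segments share. It lies at chr14:54200777-54200842.
Traj18: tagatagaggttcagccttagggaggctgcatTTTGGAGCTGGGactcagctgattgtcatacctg

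The variable segment of the invariant alpha chain is Trav11, which has near copies. The last 120 bases that the annotated copies share are shown for Trav11 at chr14:53519303-53519859, Trav11d at chr14:52824357-52824912 and Trav11n at chr14:53135122-53135678. Capitals mark the positions at which the copies are not all the same.
Trav11: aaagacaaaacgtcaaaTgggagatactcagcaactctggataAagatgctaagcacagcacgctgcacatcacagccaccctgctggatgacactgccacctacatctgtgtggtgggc
Trav11d: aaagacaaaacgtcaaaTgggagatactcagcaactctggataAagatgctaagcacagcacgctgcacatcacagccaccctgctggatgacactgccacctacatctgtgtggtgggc
Trav11n: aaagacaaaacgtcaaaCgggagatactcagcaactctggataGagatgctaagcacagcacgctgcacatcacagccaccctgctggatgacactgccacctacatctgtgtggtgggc
Trav11 and Trav11d are the same at 120 of these 120 bases, and Trav11 and Trav11n at 118. Reads within this stretch cannot be assigned to Trav11 or Trav11d, so the split of counts among the copies is uncertain.

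For the beta chain the Trbv13 segments are shown, because Trbv13-2 (V-beta 8.2) is the variable segment that mouse iNKT cells use most. These are the last 120 bases of Trbv13-1 at chr6:41116007-41116468, Trbv13-2 at chr6:41121396-41121832 and Trbv13-3 at chr6:41130147-41130585. Capitals again mark positions at which the 3 are not all the same.
Trbv13-1: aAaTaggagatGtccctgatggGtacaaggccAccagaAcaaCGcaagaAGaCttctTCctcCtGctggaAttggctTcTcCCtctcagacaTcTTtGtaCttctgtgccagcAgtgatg
Trbv13-2: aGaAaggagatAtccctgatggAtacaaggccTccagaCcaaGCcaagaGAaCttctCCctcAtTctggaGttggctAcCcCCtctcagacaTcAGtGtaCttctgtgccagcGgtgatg
Trbv13-3: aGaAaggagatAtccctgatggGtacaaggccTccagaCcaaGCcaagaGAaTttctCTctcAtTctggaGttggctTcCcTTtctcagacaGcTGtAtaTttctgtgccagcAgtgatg
Trbv13-2 shares 101 of 120 bases with Trbv13-1 and 109 of 120 with Trbv13-3.

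Reads on joining segments of the alpha locus were few and fell almost wholly on Traj18. It took 29 of 32 Traj reads in Control 1, a share of 90.6% with an exact Clopper-Pearson 95% interval from 74.98% to 98.0%. In Control 2 it took 26 of 29, a share of 89.7% with an interval from 72.6% to 97.8%. Control 1 had reads on 4 of the 51 Traj genes that have an exon length, of 60 in the table, and Control 2 on 3. These intervals and those that follow cover counting error only, since several reads can stem from 1 amplified molecule.

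Trav11 took 1668 of 2233 Trav reads in Control 1, a share of 74.7% (72.8% to 76.5%). In Control 2 it took 1582 of 2176, a share of 72.7% (70.8% to 74.6%). The intervals of the 2 libraries overlap. Of the Trav11 reads, 9.53% in Control 1 and 5.69% in Control 2 mapped uniquely, while Trav11d was counted with 12 and 20 reads. The rest of the Trav reads were spread thinly, and of 120 Trav genes with an exon length (129 in the table) 94 in Control 1 and 74 in Control 2 had at least a read. Trav6-5 had 60 reads in Control 1 and 3 in Control 2, the reverse of Trav15n-2 with 2 and 30.

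The beta chain showed the known bias of iNKT cells. Trbv13-2 took 59.6% of 10436 Trbv reads in Control 1 (58.6% to 60.5%) and 63.5% of 8583 in Control 2 (62.4% to 64.5%). Trbv29, the segment of V-beta 7, took 27.1% (26.2% to 27.9%) and 21.99% (21.1% to 22.9%). Trbv1, the segment of V-beta 2, took 3.10% (2.78% to 3.46%) and 4.53% (4.10% to 4.99%). The 3 segments together held 89.7% of Trbv reads in Control 1 and 90.0% in Control 2. Their sum agreed within counting error while the share of each alone did not.

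A single beta segment outside this trio differed most. Trbv19 had 422 reads in Control 1 and 46 in Control 2, which is 4.04% (3.67% to 4.44%) and 0.536% (0.393% to 0.714%) of Trbv reads. All of its reads mapped uniquely in both libraries. Among genes whose mean reached 20 CPM with 1 CPM or more in both libraries, it was the only receptor segment of the 15 with the largest ratio towards Control 1.

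**Figure D1:**
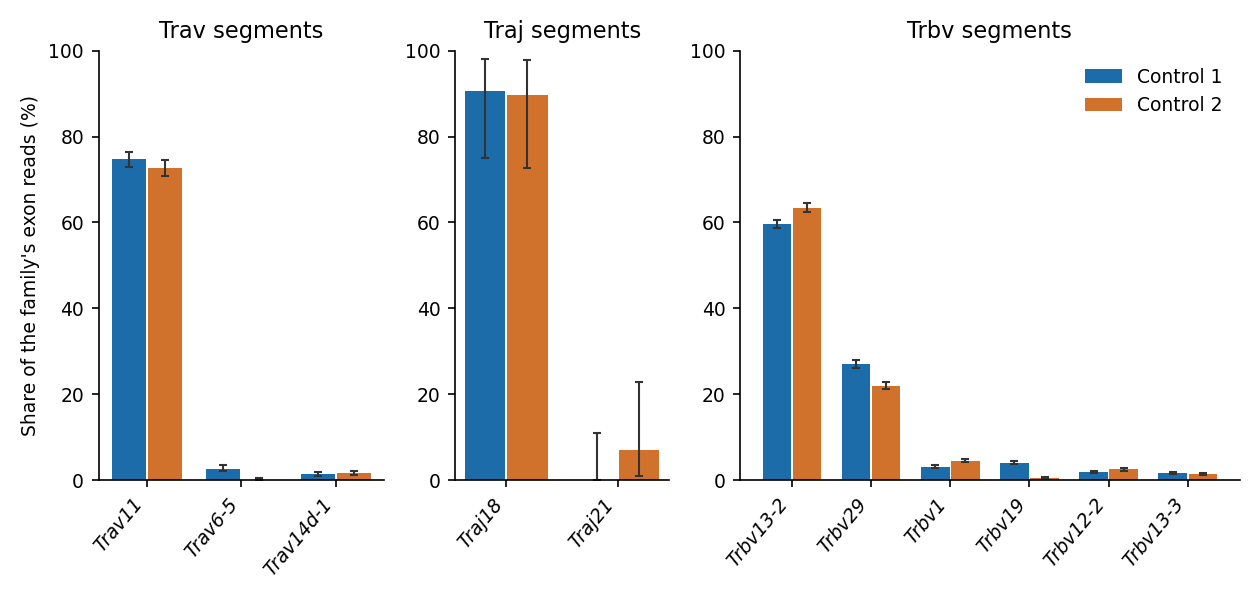
Share of the exon reads of a segment family (y axis, percent) taken by single segments (x axis) in Control 1 (blue) and Control 2 (orange), with exact 95% intervals for counting error; the families are Trav, Traj and Trbv. Trav11, Traj18 and Trbv13-2 lead their families in both libraries, and Trbv19 is visible in Control 1 at 4.04% and near 0 in Control 2.

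The chains that carry the receptor were among the most abundant transcripts. Trbc1 and Trbc2, the beta constant regions, had RPKM of 1192 and 1765 for Trbc1 and 1806 and 1599 for Trbc2, and Trac, the alpha constant region, 1385 and 1301. The signalling chains Cd3g, Cd3d and Cd3e had RPKM of 816 and 902 for Cd3g, 695 and 1042 for Cd3d and 602 and 507 for Cd3e, while Cd247 (CD3 zeta) was lower at 59.8 and 70.5. Of the 14 listed genes of the receptor complex, 13 were at 1 CPM or more in both libraries. The exception was Cd8a, with 0 reads in Control 1 and 8 in Control 2. The coreceptor Cd4 had RPKM of 60.5 and 59.9, against 2.66 and 5.72 for Cd8b1. CD4 without CD8 is a known surface pattern of thymic iNKT cells.

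All 22 listed genes of receptor signalling were detected in both libraries, with median RPKM of 49.7 and 39.8. Lck, the kinase that starts the signal at the coreceptor, was the most abundant of them at 544 and 557. The adaptor Lat had 347 and 337 and the kinase Zap70 118 and 98.1. At the low end were Nck1 with 5.81 and 3.49 and Malt1 with 3.57 and 5.66. Plcg1, the phospholipase of the pathway, had RPKM of 28.1 and 10.6, and Nfatc1, a calcium-dependent factor, 90.0 and 43.5. Those were the 2 members over 2-fold apart, both towards Control 1. Of all genes whose mean reached 10 CPM, 9.03% were over 2-fold higher in Control 1 and 3.86% in Control 2. These shares are the background for each count of genes over 2-fold from total exon reads given here, and 2 of 22 is near it. With TMM scaling of the library sizes 1 of the 22 was over 2-fold apart. The background with that scaling was 548 genes higher in Control 1 and 406 in Control 2, of 8146. With unique exon reads it was 699 and 337 of 8104.

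Of the receptors and adaptors of iNKT selection, 11 of 13 were detected. Fyn, the kinase that acts below SAP, had RPKM of 145 and 97.2, and Sh2d1a, the gene of SAP, 45.9 and 26.1. Ly9 had 57.9 and 45.8 and Slamf6, a receptor that drives iNKT selection, 33.9 and 39.3. Slamf1, its partner in selection, was far lower at 0.845 and 2.97, from 29 and 84 reads, and was the member over 2-fold higher in Control 2. Cd1d1, the lipid-presenting molecule, had 17.9 and 15.8. Cd244 and Sh2d1b1, the NK-type receptor 2B4 and the adaptor EAT-2, were at 0 reads in both.

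All 26 listed factors of iNKT lineage choice were at 1 CPM or more in both libraries, with median RPKM of 33.0 and 23.01. Id2 and Id3, inhibitors of E proteins, led them, with RPKM of 681 and 681 for Id2 and 309 and 359 for Id3. The E proteins they bind were lower, at 52.7 and 38.4 for Tcf3 and 2.85 and 3.19 for Tcf12. Tcf7, the factor TCF1, had 338 and 260.1 and Ets1 137 and 100.2. Myc, needed for early iNKT expansion, had 81.5 and 52.3, and Egr2, which induces Zbtb16, 18.8 and 10.6. Myb, needed for iNKT development from double-positive cells, had 18.9 and 17.5, Runx1 4.42 and 4.13 and Bcl6 0.938 and 0.584, the lowest of the list.

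Of the subset lists, the NKT2 list had the highest median level. All 16 of its genes were detected, with median RPKM of 51.1 and 55.8, and none was over 2-fold apart. Il4 had RPKM of 46.2 and 65.7, Il17rb, the IL-25 receptor chain, 80.1 and 58.4, and Icos, a costimulator, 352 and 284. Plac8 had 230.4 and 338, Izumo1r (folate receptor 4) 177 and 188 and Ccr7 112 and 131. Il13 was the lowest at 2.68 and 4.87, from 18 and 27 reads. The list shares Zbtb16, Gata3 and Lef1 with the marks described first. The subset lists hold unlike genes, so their medians do not give the share of each subset among the cells.

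In the NKT1 list 15 of 18 genes were detected, with lower medians of 13.7 and 7.43. The levels were uneven. Id2, which is listed here too, Il2rb and Nkg7 (RPKM 122 and 86.1) were high, as was Cxcr3 at 57.8 and 61.8. The effector genes were lower. Ifng had RPKM of 12.04 and 4.68, Gzma 7.77 and 7.43, Ccl5 2.99 and 3.85 and Xcl1 13.7 and 6.65. Gzmb had 31 reads in Control 1 and 0 in Control 2. Ifng, Klrb1c and Ly6c2 were the members over 2-fold apart, 3 of 10 compared and all towards Control 1. The log2 ratios were 1.36, 1.62 and 1.15.

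In the NKT17 list 11 of 16 genes were detected, with medians of 8.67 and 4.01. Il17a had 5 and 9 reads and Il17f none, while Ccr6 had 10 reads in Control 1 and 0 in Control 2. Itgb7 and Blk were the highest members at 268 and 358 for Itgb7 and 46.8 and 22.9 for Blk. Il1r1, Blk, Sdc1 and Tmem176b were over 2-fold higher in Control 1 and Aqp3 in Control 2. With 10 genes compared, that is 5 in all, or 4 with TMM scaling. Sdc1, the plasma cell and NKT17 marker syndecan-1, had 184 and 46 reads.

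**Figure D2:**
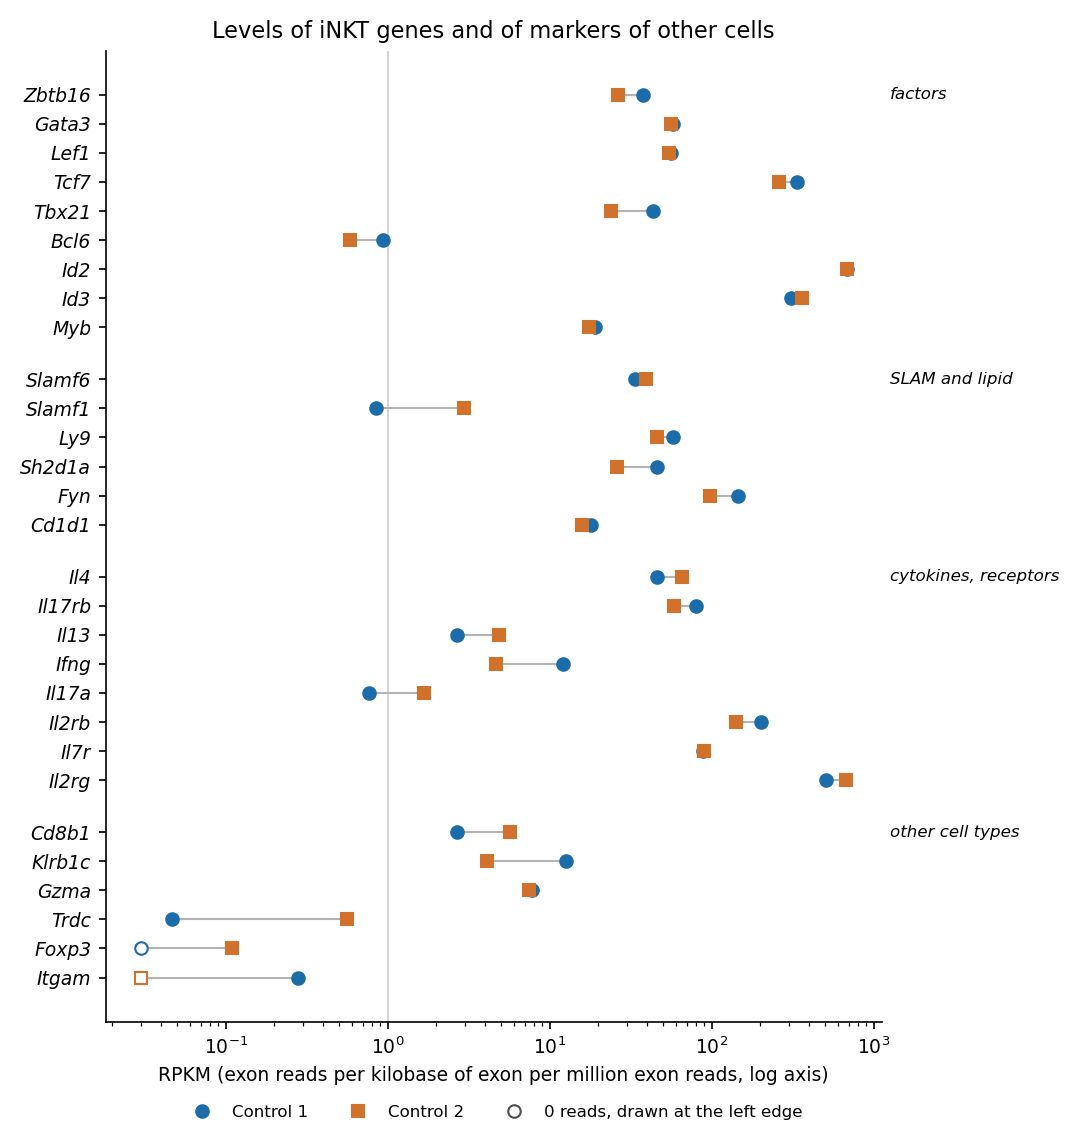
RPKM on a log axis (x axis) of iNKT factors, SLAM and lipid genes, cytokines with their receptors and markers of other cells (y axis) in Control 1 (blue circles) and Control 2 (orange squares); open symbols at the left edge are genes with 0 reads. Id2 and Il2rg lie furthest right, Zbtb16, Gata3 and Lef1 between 26.3 and 57.6, and Trdc, Foxp3 and Itgam below 1 in both libraries.

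The listed cytokine receptors, kinases and STAT factors were all detected, 26 of 26, with median RPKM of 26.2 and 15.999. Il2rg, the chain common to the receptors of IL-2, IL-4, IL-7 and IL-15, led with RPKM of 509.5 and 676. Il27ra had 189 and 151 and Il7r, the IL-7 receptor, 87.9 and 90.0. The private chains Il2ra, Il4ra and Il15ra were low. Il2ra had 0.551 and 0.459, Il4ra 0.811 and 2.05 and Il15ra 0.444 and 1.37. Among the kinases Jak1 had 85.9 and 61.8 and Jak3, which binds the common chain, 41.3 and 38.9. Of the STAT factors Stat5b had 64.5 and 34.1 and Stat6 58.9 and 34.0. Tyk2 was over 2-fold higher in Control 1 and Tgfbr1 in Control 2, which is 2 of 23 compared.

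Of 18 cytokines and chemokines 11 were detected, with median RPKM of 12.4 and 6.65. Mif, which most cells express, had 681 and 833 and Ltb, a lymphotoxin chain, 220.1 and 144. Il5, Il10, Csf2, Ccl3 and Ccl4 had 0 reads in both, and Il2 had 0 and 1. Il21 had RPKM of 3.75 and 2.89 and Tnf 12.4 and 7.43.

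The homing genes were led by adhesion molecules, and 20 of 21 were detected, with median RPKM of 32.1 and 47.2. Selplg (PSGL-1) had RPKM of 288 and 272, Itgb7 268 and 358, Itgb2 251 and 236 and Itgal, the LFA-1 alpha chain, 181 and 183. Among chemokine receptors Ccr7, a receptor of immature iNKT cells, was highest at 112 and 131, then Ccr8 at 82.4 and 94.2 and Cxcr3. Ccr9 had 31.4 and 55.9 and Cxcr6, a receptor of more mature iNKT cells, 30.5 and 56.8. The egress genes were also present. Klf2 had 42.0 and 38.4, S1pr1 25.3 and 41.5 and Cd69, which opposes egress, 11.4 and 8.01. No member of this list was over 2-fold apart among the 19 compared, although with TMM scaling 1 was, towards Control 2.

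Transcripts of dividing cells were present throughout. All 21 S phase genes and all 22 genes of G2 and mitosis were detected in both libraries, with median RPKM of 56.3 and 47.4 for S phase and 26.9 and 23.4 for mitosis. Of the 21 S phase genes, however, 12 had a ratio towards Control 2, beside 40.1% of all genes compared. The median log2 ratio of the S phase list was -0.05. Mcm6, part of the replicative helicase, had 203 and 221, Pcna, the sliding clamp, 141 and 179.9, and Rrm2, a ribonucleotide reductase subunit, 114 and 179.9. Hmgb2 had 392 and 427, Cdc20 88.0 and 88.3, Top2a 33.9 and 23.9 and Mki67 20.7 and 8.56. Of the mitosis genes Mki67 and Cenpf were over 2-fold higher in Control 1, with log2 ratios of 1.27 and 1.03, and 1 of them was with TMM scaling. Their exon sequence is long, 10075 and 11346 bases. Of the 21 S phase genes Cdc6, a loader of the helicase, was over 2-fold higher in Control 1 with a log2 ratio of 1.07. Gins2 and Ccne2 were higher in Control 2, with -1.28 and -1.08. With TMM scaling these 2 stayed over 2-fold and Cdc6 did not.

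Among survival and death genes 17 of 19 were detected, with median RPKM of 15.2 and 14.04. Bcl2a1b and Bcl2a1d, near-identical members of the A1 family whose reads cannot be told apart with certainty, were highest, at 164 and 198 for Bcl2a1b and 145 and 173 for Bcl2a1d. Bax, a death effector, had 157 and 163 and Trp53 74.9 and 63.1. Mcl1 had 36.4 and 35.3, Bcl2 2.92 and 4.87 and Bcl2l1 (BCL-XL) 7.59 and 5.26. Cdkn1a, the p53-induced inhibitor p21, was at 0.484 and 0.391. No member differed over 2-fold among the 16 compared.

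By exon reads the 10 most abundant genes held 4.64% of Control 1 and 6.42% of Control 2, the top 100 held 19.6% and 22.9%, and 689 genes held 50% of the reads of both. Tmsb4x, the actin-sequestering thymosin beta 4, led with CPM of 7570.4 and 10947. Ppia (cyclophilin A) followed with 6304 and 7627, then Pfn1 (profilin) with 2867 and 10257, Eef1a1 with 5706 and 6349, B2m with 5082 and 6727 and Ubb with 5571 and 6043. Per length B2m was first, with RPKM of 5909 and 7822, although 46.2% and 34.3% of its reads were unique. Trbv13-2 was among the 30 highest genes by RPKM, at 3281 and 3482, with Cd52 at 1519 and 4536, Cfl1 (cofilin) at 2971 and 2780.2 and Fth1 (ferritin) at 1879.7 and 2363.

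Of the 30 genes with the highest RPKM, 14 encode ribosomal proteins, and 36 of the highest 100 do. The 55 ribosomal protein genes listed had median RPKM of 584.6 and 672.5 and held 5.62% and 7.01% of exon reads. With uniquely mapped exon reads, 61.8% and 57.98% of the list's reads, these medians were 252.9 and 352.4. Among metabolic genes, all 16 of glycolysis were detected, with median RPKM of 186.0 and 155.0. Several of them have processed copies, and with uniquely mapped exon reads the medians were 93.2 and 93.7. Ldha had 1095 and 1176, Pkm 981 and 675, Eno1 491 and 527 and the hexokinase Hk1 31.7 and 23.4, against 1.98 and 0.619 for Hk2. All 24 nuclear genes of oxidative phosphorylation were detected as well, with medians of 158.9 and 234.0.

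All 19 cytoskeleton genes were detected, with median RPKM of 434.2 and 355.7. Of the 19, however, 12 had a ratio towards Control 2, beside 40.1% of all genes compared. Besides Tmsb4x and Pfn1, Actb (beta-actin) had 1406 and 1269 and Coro1a (coronin) 1109.9 and 1038. Pfn1 and Dstn were over 2-fold higher in Control 2. The 20 translation factors were detected with medians of 168.3 and 159.1. Of 24 Sm and LSm genes of the spliceosome core, some of whose proteins PRMT5 methylates, 23 were detected with medians of 63.1 and 63.6. Snrpe had 129 and 549, with 70.5% and 23.7% of its reads unique. Of 18 replication-dependent histone genes, whose RNAs mostly lack a poly(A) tail, 14 were detected with medians of 9.83 and 13.996. Among long non-coding RNAs 4 of 9 were detected, Malat1 with 79.9 and 219 and Gas5 with 36.9 and 37.6.

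MHC class I genes were high, all 13 detected with median RPKM of 152.5 and 185.8. H2-D1 had RPKM of 1201 and 1215 and H2-K1 460.0 and 369, both with close relatives in the genome, and Psmb8, an immunoproteasome subunit, 578 and 400.3. Of 20 interferon-stimulated genes 19 were detected, with medians of 49.9 and 38.01, and Ifi27l2a led with 1016 and 1526, followed by Bst2 with 216 and 215 and Isg15 with 119 and 159. Mx1 had 27 reads in Control 1 and 0 in Control 2. In the arginine methyltransferase list 11 of 12 were detected. Prmt1, the main enzyme for asymmetric marks, had 107 and 111 and Prmt5 25.2 and 23.3. Clns1a and Wdr77, partners of PRMT5, had 126 and 143 for Clns1a and 9.79 and 16.5 for Wdr77. Prmt8 had 0 reads, and Prmt6 was over 2-fold higher in Control 1.

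Markers of B cells and of myeloid and dendritic cells were mostly absent. Of 11 B cell markers 9 had 0 reads in both, among them Ms4a1, Cd79b and Pax5, and Cd79a had 1 read in Control 1. The exception was Ighm, the immunoglobulin mu constant region, with RPKM of 82.8 and 58.1 and uniquely mapped reads. The summed CPM of the list, 156.3 and 109.5, was nearly all Ighm. Of 13 myeloid and dendritic markers 7 had 0 reads in both, among them Lyz2, Adgre1, Itgax and S100a8. Cst3 and Bst2 made up nearly all of that list's 261.7 and 314.5 summed CPM. Both are also known outside myeloid cells.

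Rag1 and Rag2, which rearrange receptor genes in double-positive thymocytes, had 0 reads in both libraries, and Ptcra, the pre-receptor chain, 0 and 1. Dntt had 8 and 10 reads. Themis, at RPKM of 4.43 and 4.43, and Rmnd5a, at 7.75 and 10.03, were the higher genes of the double-positive thymocyte list. Of its 10 genes 5 were detected, and its summed CPM was 130.1 and 156.7. Of 11 NK markers 4 were detected. These were Klrb1c and Gzma, described above, Klra3 with 15 and 57 reads and Fcer1g with 73 and 128. Ncr1 and Tyrobp were at 0 in both libraries. The 2 members compared were both over 2-fold apart, Klrb1c towards Control 1 and Fcer1g towards Control 2. The NK list summed to 63.7 and 59.6 CPM. Foxp3, the factor of regulatory T cells, had 0 and 2 reads and Ctla4 a single read in each library, in a list of 6 with sums of 126.2 and 106.9 CPM. Of those 6, 3 were detected, Tnfrsf18 (GITR) at CPM of 95.7 and 76.5, which is most of that sum, Ikzf2 (Helios) at 21.5 and 26.5 and Il2ra (CD25) at 2.87 and 2.39. Of 13 stromal and erythroid markers 7 were at 0 in both. Pecam1, which T cells can also express, made up nearly all of that list's 101.2 and 82.6 CPM.

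Of 9 gamma-delta T cell markers 6 were detected, with the gamma chain constant genes highest. Tcrg-C1, Tcrg-C2 and Tcrg-C4 had RPKM of 201 and 245 for the first, 334 and 373 for the second and 269.7 and 253 for the last. Trdc, the constant gene of the delta chain, had 1 and 10 reads, below the floor in Control 1 and at 2.17 CPM in Control 2, where the floor of 3 reads is 0.652 CPM, and Trdv4 had 0 and 1. Per length, Trdc had RPKM of 0.0464 and 0.562. Sox13 had 25.5 and 11.3 and Cd163l1 13.0 and 5.22, both marks of some gamma-delta T cells. Along with Blk they were over 2-fold higher in Control 1, 3 of 6 compared, of which 2 remained over 2-fold with TMM scaling. The share of these lists in the differences between libraries was not tested. The Y-linked genes Ddx3y, Eif2s3y, Kdm5d and Uty were detected in both libraries and Xist had 0 reads in both.

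Over all 46517 genes, log2(CPM + 1) of the libraries correlated with Pearson r = 0.981 and Spearman rho = 0.908, both across genes, which are not independent replicates. Of these genes 32135 had 0 reads in both libraries and so agree by construction. Over the 8151 genes whose mean reached 10 CPM the values were 0.915 and 0.910. The biological coefficient of variation that edgeR estimated for these genes was 30.3%. Within 2-fold of each other were 87.1% of them. There were 736 genes over 2-fold higher in Control 1 and 315 higher in Control 2. With TMM scaling, which moves the median log2 ratio from 0.14 to 0.03, the split was 548 and 406.

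The difference exceeded counting error at every level. Among 2492 genes with a mean of 10 to 30 CPM the log2 ratios had an SD of 0.90, where counting alone gives 0.23. Among 121 genes at 1000 CPM or more the SD was 0.51 against 0.024 from counting.

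**Figure D3:**
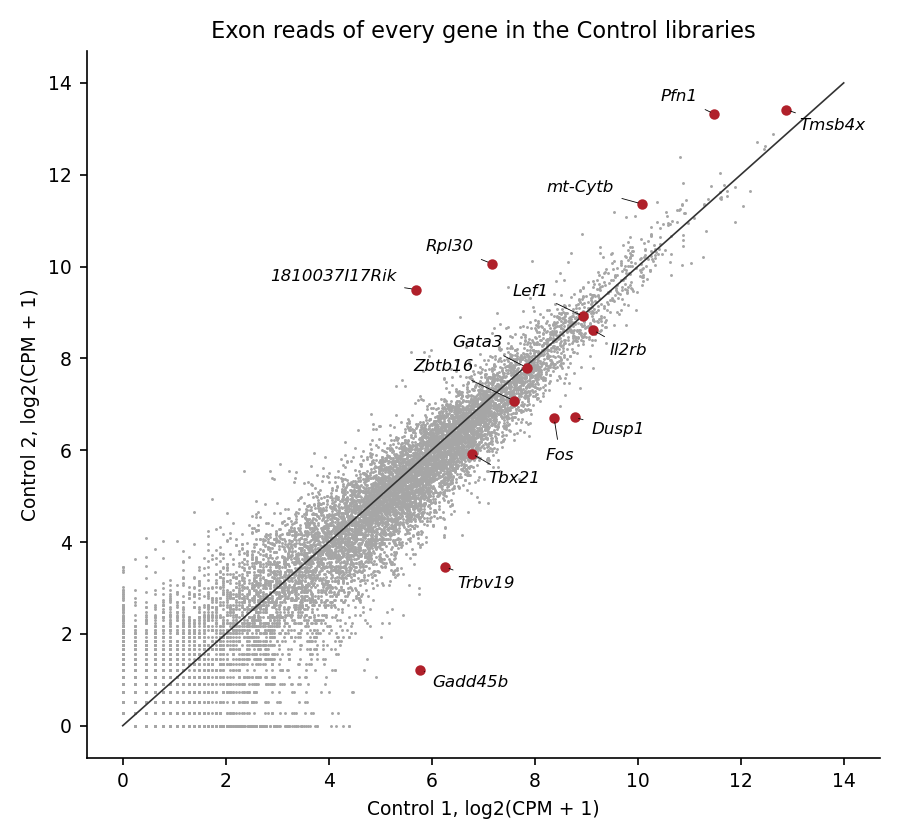
log2(CPM + 1) of each gene in Control 1 (x axis) and Control 2 (y axis), with the line of equal values and named genes in red. Lef1 and Gata3 lie on the line, Gadd45b, Dusp1, Fos and Trbv19 below it and Rpl30, 1810037I17Rik, Pfn1 and mt-Cytb above it.

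Genes whose mean reached 20 CPM, with 1 CPM or more in both libraries, were ranked by their ratio, and those at each end were mixed in kind. Towards Control 1 the first was Gadd45b, a stress-induced gene, with 300 and 6 exon reads. Rreb1, Bcl9l and Mroh1 followed, with log2 ratios of 3.30, 3.06 and 2.93. Tnfaip3 (A20), an inhibitor of NF-kappaB signalling, had CPM of 206 and 40.6, and Ccnl1 95.1 and 16.7. Towards Control 2 the first was 1810037I17Rik with CPM of 50.6 and 723, then Hist1h2bc with 4.13 and 45.6 and the ribosomal protein gene Rpl30 with 143 and 1069. Psmb5, a catalytic subunit of the proteasome, had 245 and 1115, and Eif3k 47.4 and 279.

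Some genes had reads in effect in 1 library alone. Ap3m2 and Hspa1b, a heat shock gene with a near copy, each had 111 reads in Control 1 and 0 in Control 2. That is at least 30.6-fold higher against a floor of 3 counts per library. Prdm16 had 117 and 3 reads and Erbb3 93 and 0. In the other direction Thbs1 and Bmp1 each had 0 and 46 reads, at least 18.6-fold higher in Control 2, and Cym had 3 and 62.

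Immediate early genes, which receptor signals or handling induce within minutes, were shifted as a group. Fos had CPM of 331 and 103, Dusp1, a phosphatase that limits MAP kinases, 437 and 104, and Nfkbia (I-kappaB alpha) 359 and 124. Those 3 were over 2-fold higher in Control 1. Junb had 284 and 144, Zfp36 346 and 185 and Nr4a1, a gene used as a reporter of receptor signals, 80.0 and 42.6, while Egr1 had 159 and 119.98. All 14 compared members had a ratio towards Control 1, also with TMM scaling, beside 59.9% of all genes compared. The list's median log2 ratio was 0.86, against 0.14 for all 8151 genes. Atf3 had 45 reads in Control 1 and 0 in Control 2. Egr3 went the other way, with 21 and 34 reads, below the level at which ratios were compared.

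Transcripts of the mitochondrial genome were shifted in the opposite direction. All 13 detected had more CPM in Control 2, 9 of them over 2-fold, and the list's median log2 ratio was -1.09, beside 40.1% of all genes compared with a ratio towards Control 2. mt-Co1 had CPM of 1319 and 2704 and mt-Cytb 1086 and 2631. The list took 0.769% of exon reads in Control 1 and 1.49% in Control 2. With TMM scaling 11 were over 2-fold. Of the list's reads 38.7% in Control 1 and 44.1% in Control 2 mapped uniquely, and the share differed between genes, being 0.78% and 0.96% for mt-Co3 and 99.75% and 99.78% for mt-Cytb. With unique reads alone the median RPKM was 61.3 and 121.2, and 11 of 12 compared had more CPM in Control 2, 9 over 2-fold, with a median log2 ratio of -1.19. The nuclear genes of the respiratory chain leaned the same way, 21 of 24 with a median of -0.56, among them Cycs (cytochrome c) with CPM of 272 and 499 and Ndufa4 with 376 and 838. So did ribosomal protein genes, 49 of 55 with a median of -0.42. Rpl4, Rps18 and Rps29 were exceptions, with log2 ratios of 0.91, 0.96 and 1.05. Of the 55, 1 was over 2-fold higher in Control 1 and 3 in Control 2. With unique reads alone 44 of 55 had a ratio towards Control 2, with a median of -0.41. Over 2-fold higher were then 2 in Control 1 and 7 in Control 2. Many ribosomal protein genes have processed copies, so the split of their reads among copies is uncertain.

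**Figure D4:**
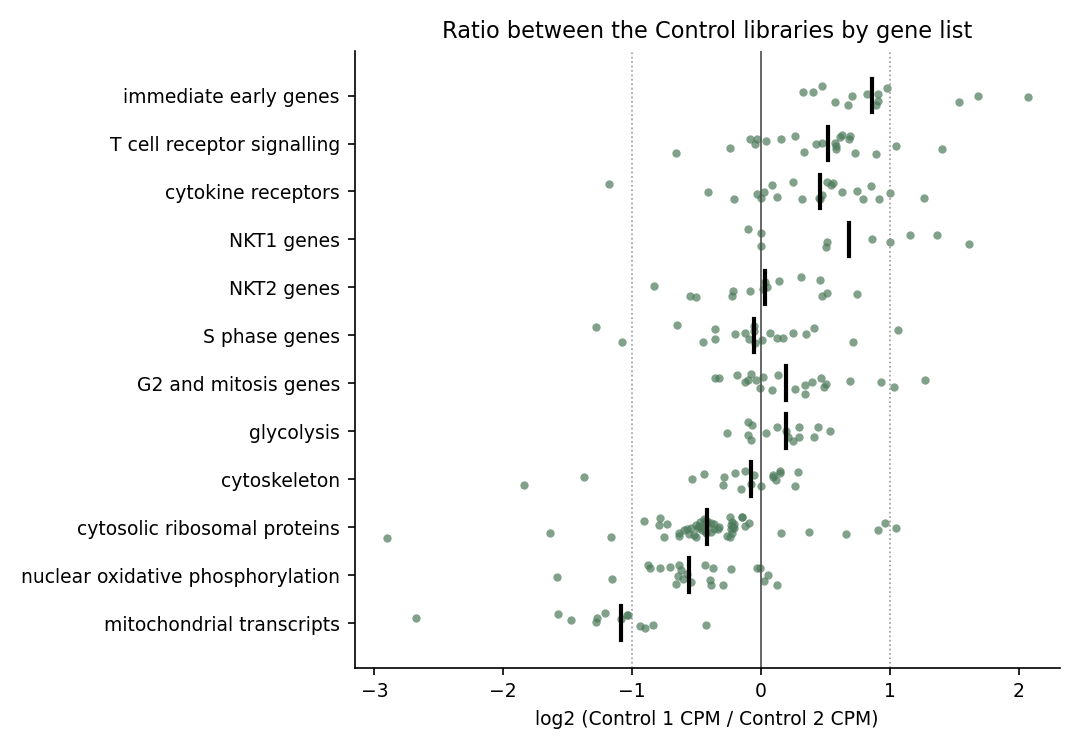
log2 ratio of Control 1 to Control 2 CPM (x axis) of the members of 12 lists (y axis) whose mean reached 10 CPM; each point is a gene, black bars are list medians and dotted lines mark 2-fold. Immediate early genes lie to the right of 0 and mitochondrial transcripts to the left, with list medians of 0.86 and -1.09.

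The ratio between libraries followed exon length. Among the 307 compared genes of at most 1000 bases of exon the median log2 ratio was -0.35, and it rose through each longer class to 0.43 among the 691 genes over 9000 bases. In the shortest class 1.95% of genes were over 2-fold higher in Control 1 and 9.77% in Control 2. In the longest class these shares were 15.1% and 2.17%. The rank correlation of exon length with the ratio was 0.2997 across the 8151 genes, 0.2988 with TMM scaling. It kept its direction within levels. Among genes of 100 to 300 CPM the median went from -0.35 to 0.46 between the same end classes.

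Exon length moves with several of the groups above. Median exon length was 784 bases for the mitochondrial transcripts, 1726 for ribosomal protein genes and 1794 for nuclear respiratory genes. Genes of up to 1000 bases had a median log2 ratio of -0.35 in all, and those of 1000 to 2000 bases of -0.16. Immediate early genes had a median exon length of 2586 bases, where genes of 2000 to 3000 bases had a median ratio of 0.05. Genes over 2-fold higher in Control 1 had a median exon length of 5108 bases, and those higher in Control 2 of 3096. Receptor signalling genes, with a median of 4411 bases and a median ratio of 0.52, had 17 of 22 towards Control 1. That stands beside 59.9% of all genes compared. With TMM scaling, where the median ratio of all genes was 0.03, 16 of the 22 had such a ratio. The share of all genes towards Control 1 with that scaling was not computed. The part of exon length in the difference of any single gene was not tested.

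**Figure D5:**
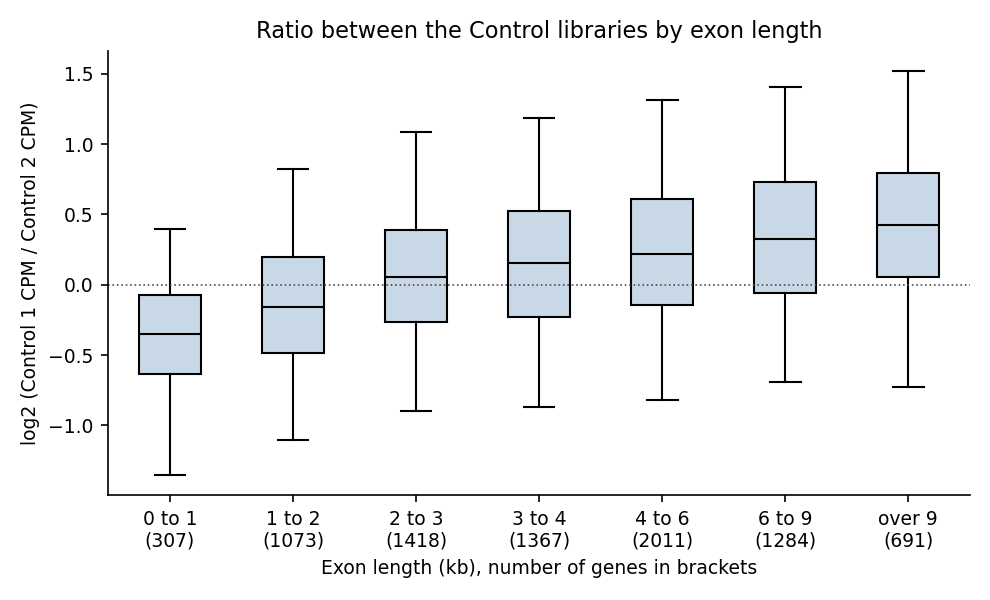
log2 ratio of Control 1 to Control 2 CPM (y axis) by exon length in kilobases (x axis, number of genes in brackets) for genes whose mean reached 10 CPM; boxes span the quartiles, lines the medians, and whiskers the 5th and 95th percentiles. The medians rise from -0.35 in the shortest class to 0.43 in the longest.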

How the data were processed

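RNA-seq counts of the 2 Control libraries were used. Per the labels, total RNA was extracted with an RNeasy Plus Micro kit, a SMART-seq v4 ultra-low-input kit served for cDNA and its amplification, and both libraries carry the same Ion Proton run name. Such a kit captures polyadenylated RNA and marks no strand, so reads of overlapping genes cannot be told apart by strand. The authors deposited whole-number counts per gene of total and unique exon, exon-exon, intron and gene reads, with reads single and trimmed per the file headers. Per the submitters' processing notes the genome build was mm10 and the tools included edgeR. The mapper, like the gene models behind the counts, is not given in the sources used here.

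Total exon reads were divided by the library's exon reads (CPM) and by exon length (RPKM, computed here). For 15821 genes exon length is 0 and their reads are counted as intron reads. Genes at 1 CPM in both libraries count as detected, and ratios were compared at a mean of at least 10 CPM. With 1 group of 2 libraries there is no test. The coefficient of variation came from edgeR 4.0.16 in R 4.3.3, tested on simulated data, and size factors from DESeq2 1.42.0. Other steps used Python 3.11.15 with pandas 2.3.3 and scipy 1.17.1. Of 46517 symbols 41980 matched GENCODE M21. Gene positions are the starts and ends as given in that annotation.

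Depth was 5571860 and 4600799 exon reads, of which 86.5% and 84.5% were unique and 55.2% and 55.1% spanned junctions. Intron reads were 6.36% and 7.90% of gene reads. The libraries, the 38 lists of 568 genes and the rules were chosen with earlier results of these data known. Named genes were the label markers, the 30 highest by CPM and by RPKM, the 15 largest ratios (mean of 20 CPM or more, 1 CPM or more in both) and 10 highest genes under 1 CPM in the other library per direction, and from each list the highest, the lowest and those over 2-fold. Further members were named after their values were seen. The values of some members are not reported here. Alternatives were other read columns, scalings, filters and pseudocounts, and each library alone.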

Additional observations from a re-analysis of the deposited data

Results flagged for a closer look

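Some reads lie outside the exon counts used above, as intron reads of genes with at least 10 times more intron than exon reads, and are flagged as a signal in a column that the comparisons did not use. Rn18s-rs5, a copy of the 18S ribosomal RNA gene, had 43576 intron reads in Control 1 and 46129 in Control 2, with 0 exon reads. The mitochondrial ribosomal RNA genes mt-Rnr2 and mt-Rnr1 have no exon length in the table. mt-Rnr2 had 9258 and 14673 intron reads and mt-Rnr1 1447 and 3462, so both had more in Control 2, the direction of the mitochondrial messenger RNAs. Zc3h7a had 15569 and 10101 intron reads beside 276 and 172 exon reads. Gm20388 had 8096 and 6062, and Cmss1 5166 and 6587. Of the Cmss1 intron reads 11 in each library were unique. With 2 samples a group, no sample could be judged to stand apart from its group.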

How the results depend on the processing

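Detected genes, the share of reads in the top 100 genes and the number of listed genes detected stayed within 1.5 times, or within the spread of the libraries, under every alternative run. For the share of reads, each library alone lies within that spread by construction, so those runs cannot show stability. Pearson r was 0.982 with unique exon reads, 0.979 with gene reads, 0.980, 0.972 and 0.982 with pseudocounts of 0.5, 0.1 and 5, and 0.924 and 0.915 over genes with a mean of at least 1 and 10 CPM. Spearman rho was 0.917 with unique exon reads, 0.873 with gene reads, and 0.942 and 0.910 with those filters. The coefficient of variation was 30.4% with unique exon reads, 29.6% with gene reads and 40.7% at a mean of at least 1 CPM. Genes over 2-fold higher in Control 1 numbered 466 at a mean of at least 20 CPM and 173 at 50. Those higher in Control 2 numbered 482 at 5 CPM, 182 at 20 and 86 at 50. DESeq2 size factors gave 543 and 406. Of 492 log2 ratios of named genes, none changed sign from over 2-fold with TMM scaling, 5 fell below 2-fold and 5 passed it. TPM, on another scale, moved the level of all 38 list medians, and unique exon reads moved 21, the mean RPKM medians being 82.0 in place of 976.8 for mitochondrial transcripts, 308.6 in place of 668.1 for ribosomal proteins and 94.5 in place of 177.8 for glycolysis. Depth limits genes near the floor of 0.538 and 0.652 CPM. No paired analysis was possible because a single group was described.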
